A study of Mus musculus with 55 samples.

Results

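The genes described here are 10 genes of bile acid synthesis, transport and feedback, of 24478 gene symbols in the deposited table. They were taken by symbol, with 1 row per symbol: Nr1h4, Nr0b2, Cyp7a1, Cyp8b1, Cyp27a1, Slc10a1, Abcb11, Abcc3, Abcc4 and Fgfr4. RNA sequencing was done on 10 populations sorted from C57B/L6 mouse liver, with 27 libraries of normal liver and 28 made following partial hepatectomy (PH), the surgical removal of part of the liver, after which the remaining tissue grows back. Values are FPKM, which divide a transcript's fragments by its length and by the size of the library. Hepatocytes (HC), the cells that make bile acids, gave 4 normal and 4 PH libraries, and the comparison between them is the main one here.

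The other populations were clonal biliary cells (cBEC, 4 normal and 2 PH libraries), biliary cells (BEC, 4 and 2), ducts without progenitor activity (NPD, 2 and 2), endothelial cells (EC, 2 and 3), sinusoidal endothelial cells (LSEC, 3 and 5), Kupffer cells (KC, the resident macrophages, 2 and 3), stellate cells (HSC, 2 and 3), Thy1 cells (2 and 2) and blood cells (2 and 2). The labels give no genotype beyond the strain, no age, no time after surgery and no statement that replicates came from separate animals. The p-values therefore measure the spread between these libraries, which may be technical. One label is at odds with itself, since PH cBEC library 1 is tagged as normal in its treatment field; its title was followed.

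Bile acids are made from cholesterol in hepatocytes, secreted across the canalicular membrane into bile, reabsorbed in the ileum and taken up again from portal blood. The nuclear receptor FXR, product of Nr1h4, binds bile acids and turns on Nr0b2, which encodes the repressor SHP, and Abcb11, which encodes the bile salt export pump. SHP and the hormone FGF15, which acts on hepatocytes through the receptor encoded by Fgfr4 and its co-receptor encoded by Klb, repress Cyp7a1, the gene of the rate-limiting enzyme. During liver regeneration the bile acid load per remaining hepatocyte is known to rise.

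Promoter sequences are shown for the 3 genes that passed the test in hepatocytes and for Abcb11, a known direct target of FXR. They are the 250 bases before the transcription start, 5′ to 3′ on the gene's own strand, from RefSeq on GRCm38.p6, whereas the deposited table uses mm9. The table of promoters held 8 of the 10 genes. Capitals mark matches to 1 of 3 patterns, searched on both strands and chosen after the sequences were read. The patterns were TCAAGG, the core bound by LRH-1 (Nr5a2); CAAAGTCCA, a form of the HNF4A site; and the inverted repeat known as IR-1, which is AGGTCA, any 1 base and TGACCT, with at most 1 mismatch.
Nr0b2 promoter (chr4:133553126-133553375, plus strand): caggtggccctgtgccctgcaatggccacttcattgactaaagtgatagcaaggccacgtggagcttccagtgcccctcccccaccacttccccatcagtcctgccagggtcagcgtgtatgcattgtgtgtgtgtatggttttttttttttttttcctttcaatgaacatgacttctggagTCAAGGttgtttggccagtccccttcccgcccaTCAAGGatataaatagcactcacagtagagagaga
Cyp8b1 promoter (chr9:121916306-121916555, minus strand): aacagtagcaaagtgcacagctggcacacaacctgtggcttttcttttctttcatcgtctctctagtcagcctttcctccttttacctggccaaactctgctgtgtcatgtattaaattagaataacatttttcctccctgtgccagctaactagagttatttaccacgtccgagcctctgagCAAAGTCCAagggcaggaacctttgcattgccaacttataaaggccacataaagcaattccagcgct
Abcb11 promoter (chr2:69342617-69342866, minus strand): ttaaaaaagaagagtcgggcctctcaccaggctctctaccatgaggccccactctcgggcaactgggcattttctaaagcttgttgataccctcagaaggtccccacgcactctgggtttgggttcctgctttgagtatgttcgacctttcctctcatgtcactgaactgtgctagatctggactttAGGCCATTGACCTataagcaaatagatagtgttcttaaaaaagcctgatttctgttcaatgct
Cyp27a1 promoter (chr1:74713285-74713534, plus strand): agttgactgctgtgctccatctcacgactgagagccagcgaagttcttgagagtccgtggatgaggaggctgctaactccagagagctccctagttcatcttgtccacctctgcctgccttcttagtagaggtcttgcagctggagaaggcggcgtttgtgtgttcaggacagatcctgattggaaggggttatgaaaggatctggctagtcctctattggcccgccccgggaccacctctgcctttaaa
The Nr0b2 promoter held TCAAGG at 68 and at 35 bases before the start, a hexamer present in 12.5% of 32851 promoters of the same length. The Cyp8b1 promoter held CAAAGTCCA at 67 bases before the start, against 0.384% of promoters. The Abcb11 promoter held the inverted repeat at 63 bases before the start, against 0.0791% of promoters. The hexamer TGACCT, at 56 bases before the start of Abcb11, lies within this repeat and occurs in 14.0% of promoters. The Cyp27a1 window held none of these patterns. A match describes the letters of the window and is not a measurement of binding.

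The hepatocyte libraries differed in a way that the study's groups do not explain, and this touched several of the 10 genes. Normal libraries 1 and 4 and PH libraries 3 and 4 had summed FPKM of 1133792 to 1203197, and normal libraries 2 and 3 and PH libraries 1 and 2 had 960918 to 1053328. The split was noticed in the data and is balanced over the groups. Over 10029 genes, the difference between the samples of higher and lower sum in normal liver correlated across genes with the same difference after PH (Pearson r 0.72, Spearman rho 0.74; genes are not independent replicates). Transcripts of 4000 bases or more were lower in the samples of higher sum, with a median log2 difference of -0.58 in normal and -0.38 in PH libraries. Transcripts under 1000 bases were higher there, by 0.57 and 0.11. By GENCODE transcript lengths, Cyp7a1, at 4172 bases, and Abcb11, at 4893 bases, are long and were lower in those samples, and Nr0b2, at 1132 bases, was higher in both conditions. Abcc3, at 4999 bases, and Fgfr4, at 3324 bases, did not follow length in both: Abcc3 gave -0.45 in normal and 0.82 in PH libraries, and Fgfr4 0.03 and 0.99. Those PH differences came mostly from PH library 1, at 22.3 FPKM of Abcc3 and 6.03 of Fgfr4. PH library 2, on the same side, had 55.4 and 18.2, and PH libraries 3 and 4 had 64.3 and 61.5 of Abcc3 and 22.8 and 21.5 of Fgfr4. The cause of the split was not tested, so the values within each side are given beside the results. PH library 1 also stood apart, with correlations of 0.85 to 0.94 to the other hepatocyte libraries. PH library 2 correlated at 0.938 with PH library 1, on its own side, and at 0.945 and 0.963 with PH libraries 3 and 4. The sides were thus less distinct after PH.

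Hepatocyte markers were present in every hepatocyte library: the 8 markers, among them Alb and Apoa1, summed to 94207 to 100464 FPKM in normal and 74874 to 105456 in PH libraries. Markers of other cells were low. The biliary list summed to 55.05 to 111.24 FPKM in normal and 36.77 to 95 in PH libraries. The Kupffer list summed to 0.3 to 10.3 FPKM in normal and 4.61 to 130.02 in PH libraries, and the endothelial list to 0.85 to 9.94 and 3.83 to 39.2. The stellate list summed to 0.29 to 4.99 and 1.83 to 20.7, and the lymphocyte list to at most 2.5 and 1.25. Their part in the results in hepatocytes was not tested.

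After PH, hepatocytes had lower transcript levels of 3 of the 10 genes: Cyp27a1, Nr0b2 and Cyp8b1 fell, each to between 3.01 and 3.93 times below its normal mean, while 0 rose. Of the 9 genes that could be tested, 3 were called lower (limma, adjusted p under 0.05), against a background of 4.41% of 10029 genes called lower, 1.78% called higher and 6.19% called in either direction. All 9 estimates were negative, as were 5657 of the 10029. None of the 9 was higher at an unadjusted p under 0.05 and 5 were lower, where 2157 of the 10029 had such a p in either direction. In 5 of the 9, every PH library was below every normal library, which held for 13.2% of all genes tested. In sorted bulk samples, fewer cells of a type and less RNA per cell cannot be told apart.

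**Figure D1:**
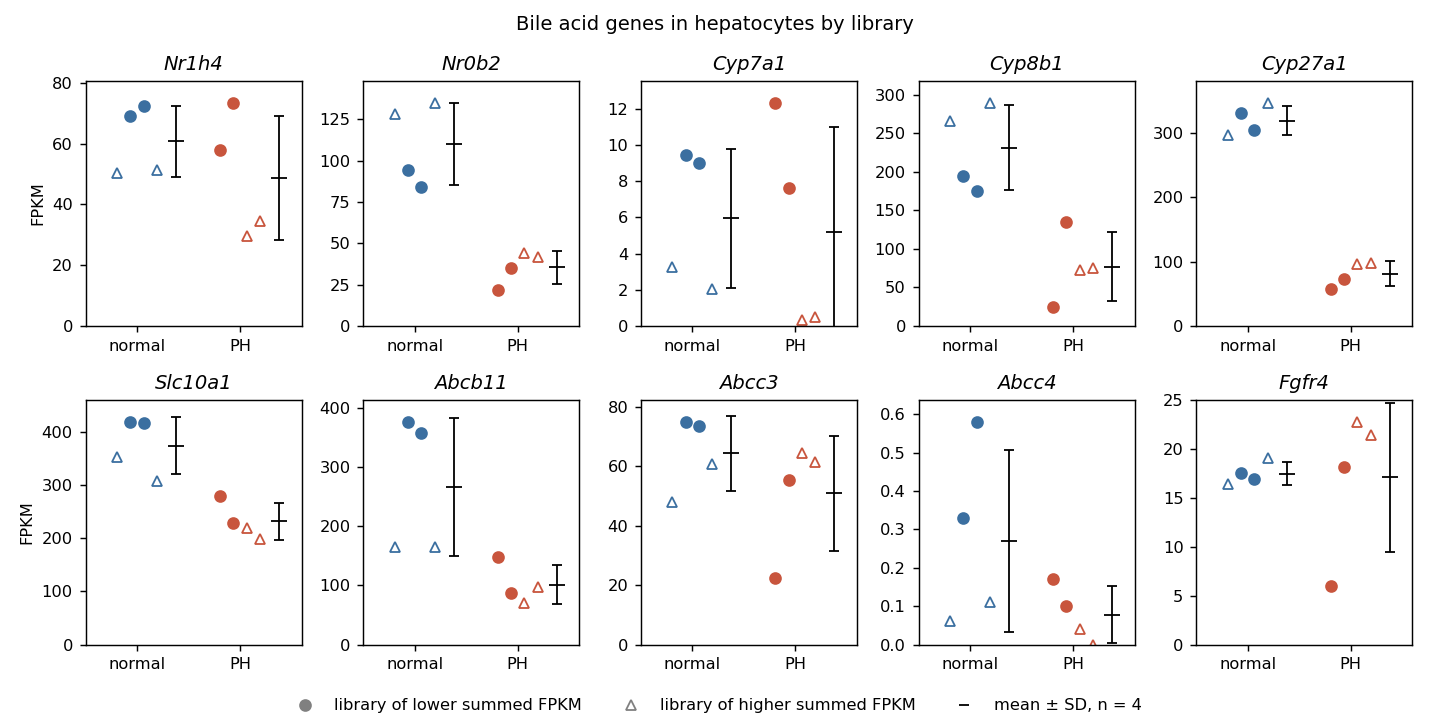
FPKM of each gene in the 4 normal (blue) and 4 PH (red) hepatocyte libraries, in replicate order, with the mean and SD beside them (bars cut at 0). Circles are samples of lower summed FPKM and triangles of higher. Cyp27a1, Nr0b2, Cyp8b1, Slc10a1 and Abcb11 separated by condition, whereas Cyp7a1 separated more by the summed FPKM. Of those that separated by condition, Slc10a1 and Abcb11 did not pass the test.

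Nr1h4 (mm9 chr10:88916978-88996367, minus strand) encodes FXR, the bile acid sensor. Its FPKM in normal hepatocytes were 50.2, 69.3, 72.5 and 51.2 in libraries 1 to 4, and 57.8, 73.3, 29.6 and 34.6 after PH. The groups overlapped, and within each group the samples of lower summed FPKM were the higher ones. The change was -0.38 on the log2(FPKM + 1) scale (SE 0.30, 95% interval -1.06 to 0.29, limma adjusted p = 0.51). Among samples of lower sum it was -0.12 and among those of higher sum -0.65, where the PH values lay below the normal ones.

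Nr0b2 (mm9 chr4:133109290-133112601, plus strand) encodes SHP, a repressor without a DNA-binding domain and a known target of FXR. Its FPKM were 128, 94.2, 83.9 and 135 in normal hepatocytes and 21.5, 35.0, 44.1 and 41.6 after PH. Every PH library was below every normal one, and the mean was 3.10 times lower after PH (110.2 ± 25.0 against 35.6 ± 10.1 FPKM, SD, n = 4 each). The change was -1.63 on the log2 scale (SE 0.27, 95% interval -2.23 to -1.02, limma adjusted p = 0.0080). It was nearly the same on both sides of the summed FPKM, at -1.66 and -1.59. In a single fit of all 20 groups, which share an estimate of the spread, the adjusted p was 0.068 by limma.

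Cyp7a1 (mm9 chr4:6192758-6202778, minus strand) encodes cholesterol 7-alpha-hydroxylase, the rate-limiting enzyme of the classic pathway. It was low and variable, with 3.25, 9.44, 8.98 and 2.07 FPKM in normal hepatocytes and 12.3, 7.59, 0.32 and 0.51 after PH. The highest and the lowest of the 8 libraries were both PH libraries. The log2 change was -0.64 with an interval of -2.36 to 1.07 (SE 0.77, limma adjusted p = 0.69), so neither a rise nor a large fall lies outside it. Within the samples of lower sum the mean went from 9.21 to 9.94 FPKM, and within those of higher sum from 2.66 to 0.415 FPKM. The 2 sides thus gave log2 changes of 0.07 and -1.36, and this difference between them was not tested.

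Cyp8b1 (mm9 chr9:121823473-121825423, minus strand) encodes the sterol 12-alpha-hydroxylase that directs synthesis to cholic acid. Its FPKM were 266, 195, 175 and 289 in normal hepatocytes and 25.0, 135, 72.8 and 74.8 after PH. The groups did not overlap, but the PH libraries spanned 24.96 to 134.74, with library 1 lowest and library 2 highest. The mean was 3.01 times lower after PH, and the log2 change was -1.77 (SE 0.44, 95% interval -2.75 to -0.79, limma adjusted p = 0.043). The adjusted p was 0.104 with no filter on low values, 0.074 with quantile normalization and 0.066 with upper-quartile scaling. Leaving out any 1 of the 4 normal libraries, or PH library 3 or 4, gave limma adjusted p of 0.073 to 0.11.

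Cyp27a1 (mm9 chr1:74760108-74784471, plus strand) encodes the mitochondrial sterol 27-hydroxylase, which starts the alternative pathway and oxidizes the side chain. Its FPKM were 296, 330.3, 305 and 346 in normal hepatocytes and 56.9, 73.5, 96.2 and 98.4 after PH. Every PH library lay far below the lowest normal one. The mean was 3.93 times lower (319 ± 23.0 against 81.2 ± 19.8 FPKM, SD, n = 4 each). The estimated change was -1.99 on the log2 scale (SE 0.22, 95% interval -2.49 to -1.50, limma adjusted p = 0.00086). It was called lower under each alternative that was run, and it was -2.28 and -1.71 on the lower and higher sides of the summed FPKM.

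**Figure D2:**
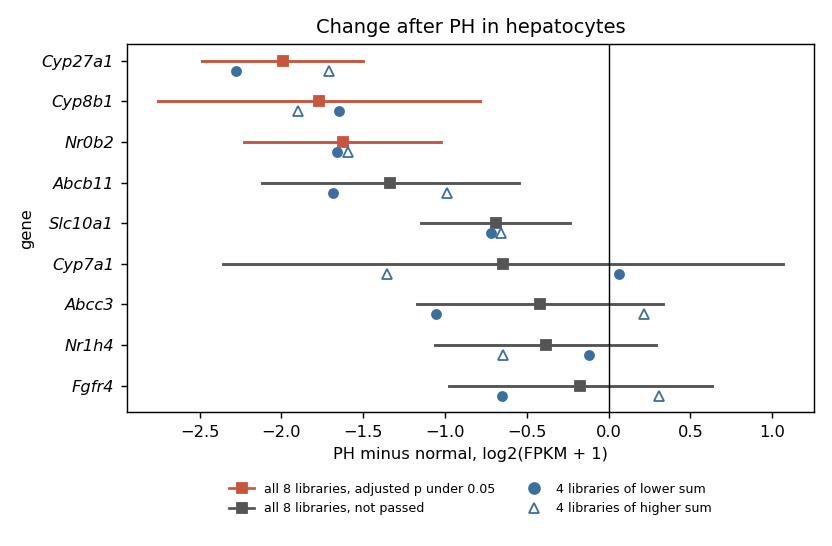
PH minus normal on the log2(FPKM + 1) scale for the 9 genes tested in hepatocytes. Squares and lines are the limma estimate and its 95% interval over 8 libraries. Circles and open triangles are the differences among the 4 libraries of lower and of higher summed FPKM. For Cyp27a1, Cyp8b1 and Nr0b2 both sides fell below -1.5, and for Cyp7a1, Abcc3 and Fgfr4 they lay on opposite sides of 0. PH library 1, on the lower side, was the lowest library for Abcc3 (22.3 FPKM) and Fgfr4 (6.03).

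Slc10a1 (mm9 chr12:82054171-82069066, minus strand) encodes NTCP, which takes up bile acids from the sinusoid. Its FPKM were 353, 419, 418 and 308 in normal hepatocytes and 280.05, 229, 219.8 and 198 after PH. Every PH library was below every normal one, and the means differed 1.62 times. On the log2 scale the change was -0.69 (SE 0.20, 95% interval -1.15 to -0.24) and did not pass (limma adjusted p = 0.080). The change was as large within each side of the summed FPKM, at -0.72 and -0.66. With a term for the side in the model, added after the split was seen, it passed (limma adjusted p = 0.0083), and also without PH library 1 (limma adjusted p = 0.039).

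Abcb11 (mm9 chr2:69076338-69180673, minus strand) encodes the canalicular bile salt export pump. Its FPKM were 164, 377, 357 and 166 in normal hepatocytes and 147, 87.6, 70.4 and 97.5 after PH. The groups did not overlap, yet PH library 1 lay close to normal libraries 1 and 4. The mean was 2.64 times lower after PH, with a change of -1.33 on the log2 scale (SE 0.35, 95% interval -2.12 to -0.55, limma adjusted p = 0.054). On the lower and higher sides the change was -1.68 and -0.99. With the term for the side the limma adjusted p was 0.0035, and without PH library 1 it was 0.041.

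Abcc3 (mm9 chr11:94204608-94254290, minus strand) encodes MRP3, an exporter of the basolateral membrane. Its FPKM were 47.9, 74.95, 73.5 and 60.8 in normal hepatocytes and 22.3, 55.4, 64.3 and 61.5 after PH. Apart from PH library 1, the PH libraries lay within the normal range. The log2 change was -0.42 (SE 0.34, 95% interval -1.17 to 0.33, limma adjusted p = 0.52), and without PH library 1 it was -0.07.

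Abcc4 (mm9 chr14:118881913-119105441, minus strand), the gene of the basolateral exporter MRP4, was at most 0.58 FPKM in any hepatocyte library and was not tested there. Fgfr4 (mm9 chr13:55254178-55270120, plus strand), the gene of the FGF15 receptor, had 16.4, 17.6, 16.9 and 19.1 FPKM in normal hepatocytes and 6.03, 18.2, 22.8 and 21.5 after PH. PH library 1 was the only one far from the rest. The log2 change was -0.17 (SE 0.36, 95% interval -0.98 to 0.63, limma adjusted p = 0.83), and without that library it was 0.23.

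With the term for the side of the summed FPKM, 5 of the 9 genes were called lower in hepatocytes: Cyp27a1, Nr0b2, Cyp8b1, Slc10a1 and Abcb11. That fit called 2191 genes, against 621 without the term, so a larger share of all genes passed as well. Cyp7a1 and Nr1h4 did not pass in it (limma adjusted p = 0.14 and 0.11).

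The genes also differed in how they varied among the 8 hepatocyte libraries, which share the condition and the split. Pearson r of log2(FPKM + 1) was 0.97 for Nr0b2 with Cyp27a1 and 0.92 for Nr0b2 with Cyp8b1. It was 0.94 for Slc10a1 with Abcb11, 0.92 for Nr1h4 with Cyp7a1 and 0.90 for Abcc3 with Fgfr4. Cyp7a1 and Nr0b2 gave -0.09. These are descriptions over 8 libraries.

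Among about 4376 genes with a mean of at least 10 FPKM in hepatocytes, the 3 whose levels were most like Cyp7a1 were Dusp6 (r 0.98), a phosphatase that inactivates ERK, Rab3gap1 (r 0.98) and Fos (r 0.97), an immediate-early transcription factor. Those most like Nr0b2 were Acaa1b, a peroxisomal thiolase, Acss2, the acetyl-CoA synthetase, and Fasn, the fatty acid synthase, each with r 0.99. Those most like Slc10a1 were Serpind1 (r 0.99), the heparin cofactor secreted by hepatocytes, Bco2 (r 0.99), a carotenoid-cleaving enzyme, and Oma1 (r 0.98), a mitochondrial protease.

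The rest of the pathway was read from 5 lists with 64 names, of which 63 were in the table and 54 could be tested in hepatocytes. Of these 54 genes, 11 were called lower and 1 higher by limma, beside the backgrounds of 4.41% and 1.78%, with a median log2 change of -0.36, against -0.07 over all 10029 genes. The names on the lists do not include the 10 genes above. The lists were chosen with earlier results of these data known, so these counts are not an independent test of the pathway.

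In the synthesis list, 3 of 16 tested genes were lower and 0 higher. Cyp2c70, which makes the muricholic acids of the mouse, had 471, 944, 927 and 461 FPKM in normal hepatocytes and 211, 96.0, 115 and 114 after PH, a change of -2.36 on the log2 scale (SE 0.34, limma adjusted p = 0.0041). All PH libraries were below the normal ones. Slc27a5, the bile acyl-CoA synthetase that precedes conjugation, changed by -1.35 (SE 0.23, limma adjusted p = 0.0080), and Fdx1, the ferredoxin that passes electrons to mitochondrial P450 enzymes such as CYP27A1, by -0.94 (SE 0.23, limma adjusted p = 0.042). The Fdx1 call was lost with no filter (limma adjusted p = 0.075) and without any 1 library other than PH library 1 (limma adjusted p from 0.0707 to 0.121).

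**Figure D3:**
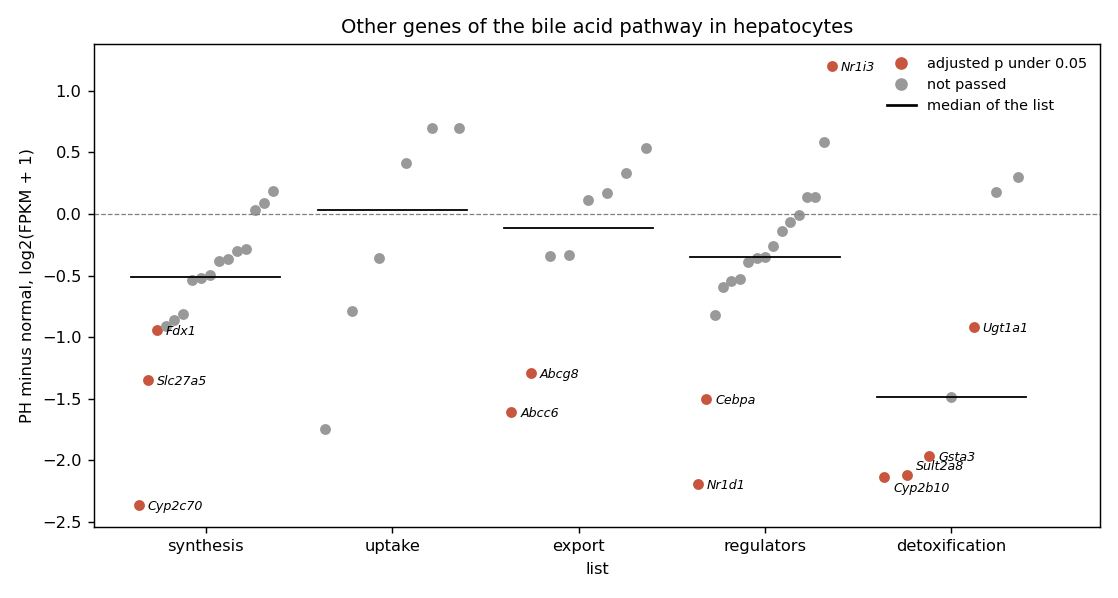
PH minus normal in hepatocytes, on the log2(FPKM + 1) scale, for the 54 tested genes of 5 bile acid lists. Points in red passed the limma test at an adjusted p under 0.05 and are named; the black bar is the median of the list, -0.51 for synthesis, 0.03 for uptake, -0.11 for export, -0.35 for regulators and -1.48 for detoxification.

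In the export list, 2 of 8 were lower and 0 higher. Abcc6, a transporter of the basolateral membrane, had 30.2, 61.4, 49.4 and 36.1 FPKM in normal and 9.58, 14.1, 13.2 and 17.8 in PH hepatocytes, a change of -1.60 on the log2 scale (SE 0.27, limma adjusted p = 0.0082). Abcg8, a subunit of the canalicular sterol exporter, changed by -1.29 (SE 0.29, limma adjusted p = 0.028), a call lost with no filter and without normal library 2 or 3 or PH library 2 or 4 (limma adjusted p from 0.0519 to 0.0829). Abcc2, the canalicular exporter MRP2, gave -0.34 (limma adjusted p = 0.75) and Abcb4, the phospholipid exporter of bile, 0.33 (limma adjusted p = 0.67). Both were far lower in the 2 normal samples of higher sum, with Abcc2 at 38.0 and 40.2 FPKM against 142 and 138.

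In the uptake list, 0 of 6 passed by limma, and 2 were lower at an unadjusted p under 0.05. Slco1b2, a sinusoidal organic anion transporter, had 90.5, 353, 313 and 74.4 FPKM in normal and 355, 349.8, 100.06 and 191 in PH hepatocytes, a change of 0.42 (limma adjusted p = 0.74). Its values ran opposite to the summed FPKM in both conditions, higher in the samples of lower sum.

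Of 17 regulators tested, 2 were lower and 1 was higher. Nr1d1, the circadian repressor REV-ERB alpha, had 37.5, 53.6, 56.3 and 37.7 FPKM in normal and 12.1, 6.24, 9.66 and 9.62 in PH hepatocytes, a change of -2.19 (SE 0.24, limma adjusted p = 0.00087). Cebpa, a transcription factor of the mature hepatocyte, changed by -1.50 (SE 0.35, limma adjusted p = 0.035). The Cebpa call was lost with no filter and without normal library 1 or 4 or PH library 1, 2 or 4 (limma adjusted p from 0.0689 to 0.0954). Nr1i3, the xenobiotic receptor CAR, was the gene that rose, from 38.6, 53.8, 40.6 and 36.9 to 52.4, 130.05, 102 and 131 FPKM. Its groups overlapped at PH library 1, and the change was 1.20 (SE 0.30, limma adjusted p = 0.045). The call was lost when any library other than PH library 1 was left out, with no filter and with upper-quartile scaling (limma adjusted p from 0.0551 to 0.13). Hnf4a (0.13, limma adjusted p = 0.75), Nr5a2 (-0.14, 0.88) and Klb (-0.26, 0.71) did not pass.

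Of 7 detoxification genes, 4 were lower and 0 higher. Gsta3, a glutathione transferase, had 1482, 901, 836 and 1497 FPKM in normal and 351, 276, 276 and 269 in PH hepatocytes, a change of -1.96 (SE 0.25, limma adjusted p = 0.0022). Sult2a8, a sulfotransferase of bile acids, changed by -2.12 (SE 0.46), Cyp2b10, a P450 enzyme induced through CAR, by -2.14 (SE 0.50) and Ugt1a1, a glucuronosyltransferase, by -0.92 (SE 0.22), with limma adjusted p of 0.025, 0.035 and 0.039. For Cyp2b10, PH library 1 had 13.5 FPKM and the others 1.50 to 2.04, against 14.3 to 22.4 in normal liver. The Ugt1a1 call was lost when any 1 library was left out (limma adjusted p from 0.0558 to 0.117). The Cyp2b10 call was lost without any library but PH library 1, and the Sult2a8 call without normal library 2 or 3 or PH library 2 or 4 (limma adjusted p from 0.0605 to 0.103).

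Outside hepatocytes the 10 genes fell into those seen mainly in hepatocytes and those measured elsewhere. Of the 47 other libraries, Cyp7a1 and Abcb11 were listed at 0 in 39 each, Slc10a1 in 36, Cyp8b1 in 33 and Nr0b2 in 29. A listed 0 can be a failed estimate, since abundant hepatocyte genes such as Apoa1 were also listed at 0 in these populations. Fgfr4 was listed at 0 in 17, Cyp27a1 in 16, Nr1h4 in 5, Abcc3 in 2 and Abcc4 in 0. Summed FPKM was 624726 to 848630 in the other populations, against 960918 to 1203197 in hepatocytes. Orders of level between hepatocytes and other cells below thus compare unlike totals.

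**Figure D4:**
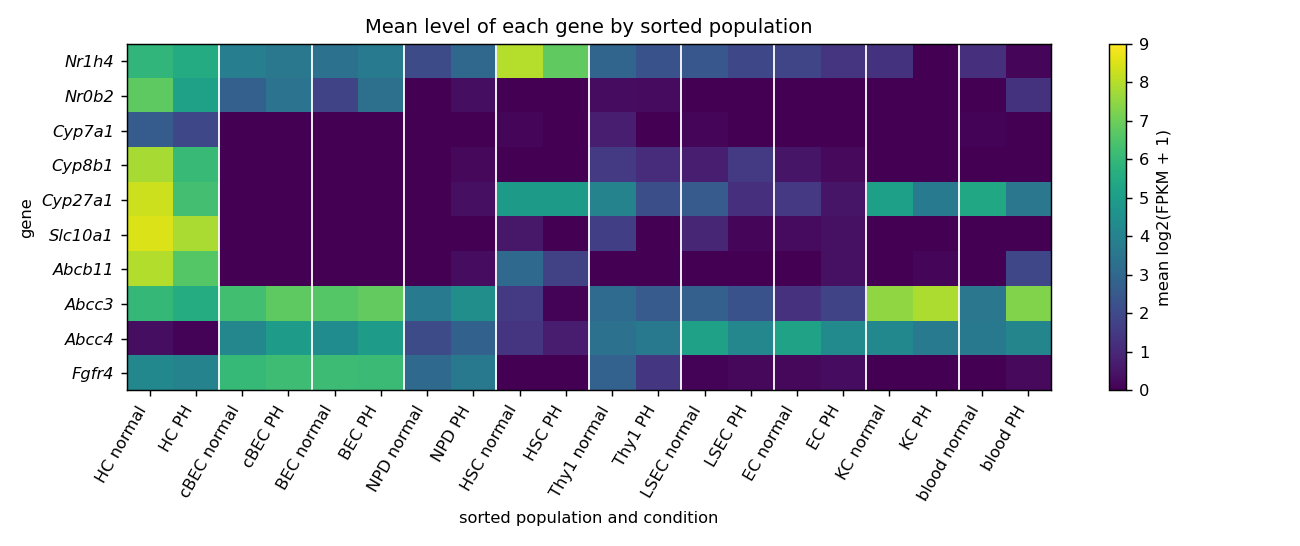
Mean log2(FPKM + 1) of each gene in the 20 groups of 10 sorted populations, normal and PH side by side. Slc10a1, Cyp8b1 and Cyp7a1 were bright or detectable mainly in hepatocytes, Nr1h4 was brightest in stellate cells, Abcc3 in Kupffer cells, and Fgfr4 in biliary cells.

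Nr1h4 had its highest level in stellate cells, the vitamin A storing cells of the sinusoid, with 327 and 202 FPKM in normal and 146, 71.6 and 128 in PH libraries. Hepatocytes came next, at 50.2 to 72.5 in normal liver, with no overlap with normal stellate cells. Biliary cells had 4.95 to 17.8 FPKM in normal cBEC and BEC, and normal LSEC 3.98 to 5.39. In the stellate libraries the 8 hepatocyte markers summed to at most 10.4 FPKM, with Alb, Apoa1 and Ttr listed at 0 in each. A listed 0 can be a failed estimate, so these markers cannot show whether hepatocyte RNA was present. The normal stellate libraries held 18.3 and 2.74 FPKM of Abcb11, and the PH ones 5.98, 0 and 4.23. The 8 stellate markers summed to 12683 to 16934 FPKM in normal and 13739 to 22477 in PH libraries.

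In stellate cells every PH library was below both normal ones for Nr1h4, and the share of all genes so separated there was not counted. This change of -1.21 on the log2 scale (SE 0.39, 95% interval -2.11 to -0.32) did not pass (limma adjusted p = 0.49), in a population where 0.00853% of 11729 genes were called. The summed endothelial markers of these libraries went from 173 to 1005 FPKM in normal to 16.5 to 66.6 after PH, and the Kupffer and macrophage markers from 76.0 to 965 down to 0.51 to 50.2. Their part was not tested. The table holds 3 rows for Nr1h4. The ratio of the row used to the row of another RefSeq transcript, NM_009108, was 1.12 to 1.13 in normal and 0.92 to 1.07 in PH stellate cells. In hepatocytes it was 0.93 to 0.94 in normal and 0.93 in PH libraries.

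Fgfr4 was highest in biliary cells, at 41.9 to 81.2 FPKM in normal cBEC and 61.7 to 76.9 in normal BEC. These did not overlap the 16.4 to 19.1 FPKM of normal hepatocytes. NPD had 6.71 and 8.02, and normal KC, HSC and blood libraries were listed at 0. Klb, the co-receptor, was at 0 to 0.51 FPKM in all cBEC and BEC libraries and 8.16 to 15.3 in normal hepatocytes. In biliary cells Fgfr4 gave log2 changes of 0.18 in cBEC (95% interval -0.51 to 0.87) and -0.03 in BEC (-0.42 to 0.36), with limma adjusted p of 0.86 and 0.96.

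Abcc4, near 0 in hepatocytes, was listed above 0 in all 47 other libraries and highest in endothelium, at 34.6, 43.3 and 27.7 FPKM in normal LSEC and 40.3 and 30.6 in normal EC. Normal LSEC and EC overlapped each other, and both lay above BEC (16.8 to 26.2), KC (15.6 and 19.8) and cBEC (14.9 to 20.4), which overlapped among themselves.

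After PH, Abcc4 was lower in LSEC, at 16.2, 13.7, 19.4, 13.5 and 23.9 FPKM. No PH library reached the lowest normal one, a separation not counted over all genes there. The mean was 2.03 times lower (35.2 ± 7.77, SD, n = 3, against 17.3 ± 4.40, SD, n = 5). On the log2 scale this was -0.99 (SE 0.22, 95% interval -1.48 to -0.51, limma adjusted p = 0.022), in a population with 8.46% of 11501 genes called. The call was lost with no filter (limma adjusted p = 0.052) and without normal library 1 or 2 or PH library 1 or 4 (limma adjusted p from 0.0515 to 0.093). The endothelial marker list also went from 6165 to 9621 summed FPKM in normal to 3003 to 5831 in PH LSEC, and its part in the result was not tested.

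In EC, Abcc4 was 13.7, 24.3 and 19.8 FPKM after PH, all below the normal libraries, with a change of -0.87 (SE 0.27, limma adjusted p = 0.34; 0.0249% of 12064 genes called). The biliary markers in EC went from 47.3 to 58.3 summed FPKM up to 173 to 323, and their part was not tested. In KC it changed by -0.50 (SE 0.15, limma adjusted p = 0.051; 36.8% of 11835 genes called), which was called without PH library 3. In ducts the PH libraries were all above the normal ones: cBEC went from 14.9 to 20.4 FPKM to 27.5 and 32.5, BEC from 16.8 to 26.2 to 28.5 and 31.2, and NPD from 2.81 and 3.64 to 5.16 and 6.81. These changes were 0.79 (SE 0.19), 0.56 (SE 0.20) and 0.72 (SE 0.26), with limma adjusted p of 0.33, 0.22 and 0.13, and none passed; BEC passed without normal library 2 (limma adjusted p = 0.043). The backgrounds were 0.0681% of 13225 genes called in cBEC, 1.81% of 12851 in BEC and 15.2% of 13024 in NPD. The PH libraries also lay above the normal ones for each of the 10 genes that could be tested in NPD (4 of 4). In cBEC and in BEC they did so for 2 of 5, Abcc3 and Abcc4. The share of all genes so separated was not counted in these ducts or in EC. These counts thus lack a background and are not a result about the 10 genes. By limma, 1257 of all genes tested in NPD were called higher and 717 lower. Markers moved in the duct libraries as well. In NPD the biliary list went from 2655 to 3864 summed FPKM up to 4032 to 4859, and the stellate list from 3052 to 3677 down to 1430 to 1524. In BEC the endothelial list went from 77.3 to 286 down to 1.16 to 3.61, and the Kupffer and macrophage list from 148 to 412 down to 43.9 to 50.6. The Kupffer and macrophage list of cBEC went from 82.6 to 131 down to 43.3 to 59.3. Their part in the duct values was not tested.

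**Figure D5:**
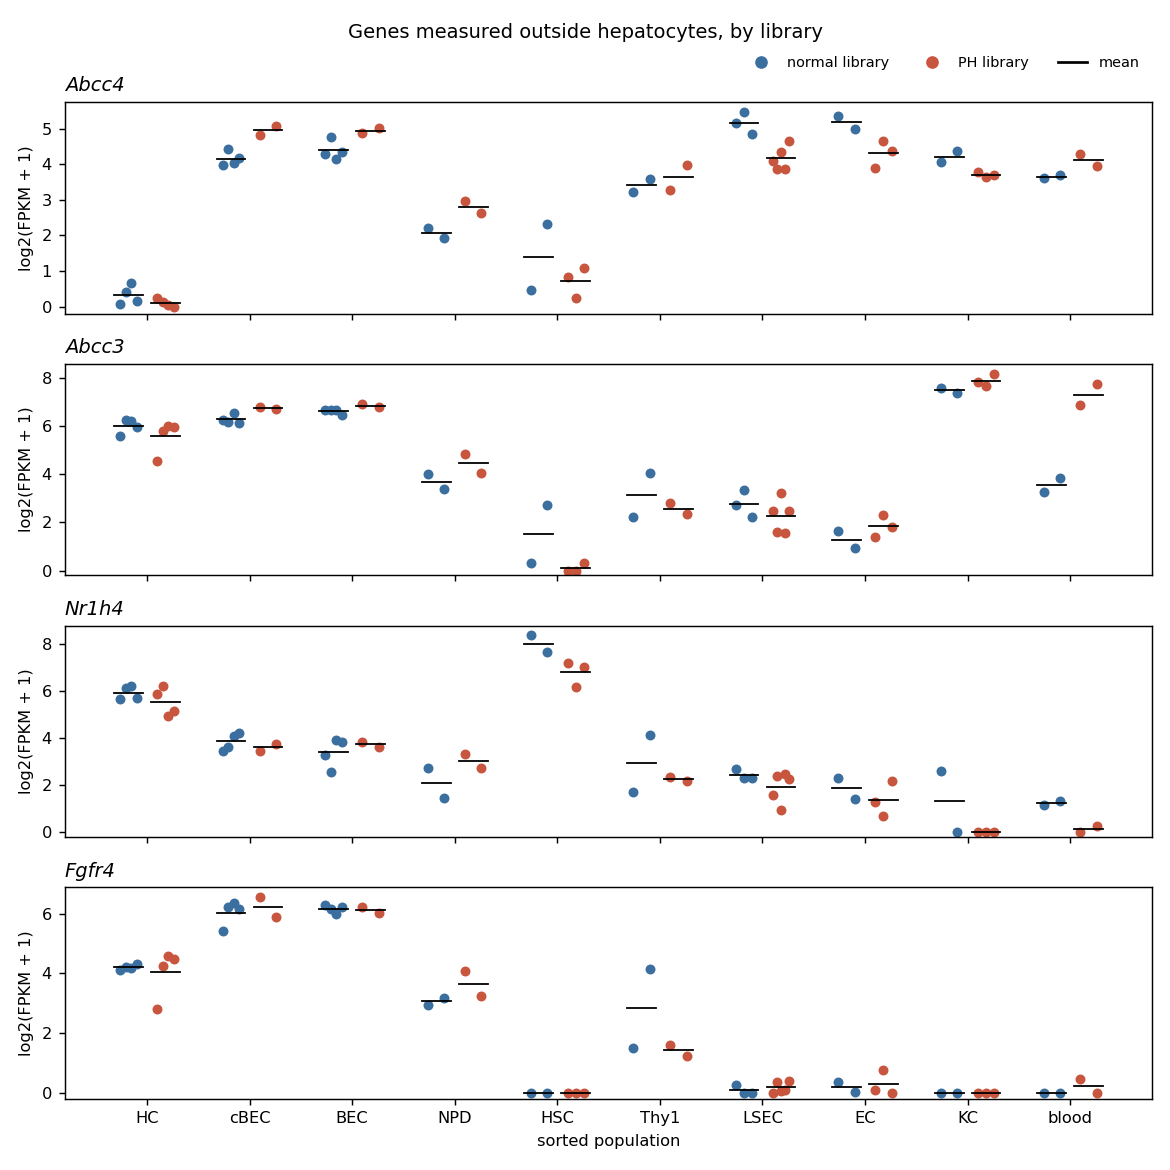
log2(FPKM + 1) of Abcc4, Abcc3, Nr1h4 and Fgfr4 in every library of the 10 populations; blue points are normal and red points PH libraries, and black bars are group means. Abcc4 was near 0 in hepatocytes, lower after PH in LSEC and EC and above the normal libraries in cBEC, BEC and NPD, and Abcc3 in blood cells rose from 8.67 and 13.5 to 115 and 214 FPKM.

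Abcc3 was highest in Kupffer cells, at 194 and 165 FPKM in normal and 228, 202 and 289 in PH libraries. Normal BEC (87.4 to 102) came next, above normal hepatocytes (47.9 to 74.95), while normal cBEC (70.2 to 93.8) overlapped both. The blood cells had 8.67 and 13.5 FPKM in normal and 115 and 214 in PH libraries, a change of 3.74 on the log2 scale (SE 0.37, 95% interval 2.78 to 4.71, limma adjusted p = 0.0018).

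In blood cells 64.0% of 12819 genes were called, and the cell makeup differed by the markers. The Kupffer and macrophage list, with 8 of 8 genes at 1 FPKM or more, summed to 743 to 1068 FPKM in normal and 11525 to 20107 in PH libraries. The lymphocyte list went from 4447 to 4624 down to 632 to 1064. Their part in the Abcc3 result was not tested.

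In the same blood libraries, Cyp27a1 fell from 47.7 and 34.4 to 8.88 and 13.0 FPKM (log2 change -1.82, SE 0.26, limma adjusted p = 0.0044). The call was lost without normal library 1 (limma adjusted p = 0.055). Nr1h4 went from 1.25 and 1.54 FPKM to 0 and 0.19 (log2 change -1.13, SE 0.18, limma adjusted p = 0.0055; 0.052 without normal library 2). Nr0b2 was listed at 0 in both normal libraries and at 1.97 and 1.05 FPKM after PH (limma adjusted p = 0.0077). Both are low values, and the Nr0b2 call was lost without either normal library (limma adjusted p = 0.073 and 0.0705). In the single fit of all groups both the Nr0b2 and the Nr1h4 calls were lost (limma adjusted p = 0.206 and 0.12).

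Cyp27a1 outside hepatocytes was measured in normal blood cells (34.4 and 47.7 FPKM), Kupffer cells (22.3 and 47.5), stellate cells (21.5 and 38.1) and Thy1 cells (13.8 and 17.2), all far below hepatocytes and overlapping each other apart from Thy1. In cBEC and BEC it was listed at 0 in every library.

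After PH, Cyp27a1 was lower in KC, at 14.1, 15.0 and 8.29 FPKM (log2 change -1.36, SE 0.39, limma adjusted p = 0.044), and in LSEC, where it went from 3.34, 6.44 and 5.55 FPKM to 1.66, 2.68, 0.55, 0.58 and 1.89 (log2 change -1.35, SE 0.34, limma adjusted p = 0.038). The groups did not overlap in either, and the share of all genes so separated was not counted there. The KC call was lost without either normal library or PH library 1 or 2 (limma adjusted p from 0.0565 to 0.23) and with no filter. The LSEC call was lost with a pseudocount of 0.1, with no filter and without any library but PH 2 and PH 3 (limma adjusted p from 0.0585 to 0.13). In KC the endothelial markers went from 3072 to 4126 summed FPKM to 485 to 852, and the Kupffer markers from 16100 to 17790 up to 32148 to 33204; their part was not tested. In stellate cells Cyp27a1 gave a change of 0.02 (95% interval -0.78 to 0.82, limma adjusted p = 0.99).

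In all, 7 of 41 tested pairs of gene and population outside hepatocytes passed: 4 of 5 in blood cells, 2 of 5 in LSEC and 1 of 3 in KC. In blood cells and KC these shares were near the background of all genes called there. In cBEC, BEC, NPD, EC, HSC and Thy1 cells 0 passed by limma, while 2 of 5, 1 of 5, 1 of 4, 1 of 4, 1 of 4 and 1 of 6 had an unadjusted p under 0.05. Over all genes tested there, 1346, 2097, 4426, 1297, 995 and 2417 had such a p, so the counts in BEC, NPD and Thy1 cells were near the background. In Thy1 cells this was Cyp27a1, at 13.8 and 17.2 against 6.71 and 1.54 FPKM, where 0.00747% of 13389 genes were called. In the single fit of all groups, Cyp27a1 and Fgfr4 were called in Thy1 cells, among 1749 genes called there. Fgfr4 was 1.83 and 16.8 FPKM in normal and 2.04 and 1.36 in PH Thy1 libraries. Its groups overlapped, and it did not pass in the fit of Thy1 cells alone (limma adjusted p = 0.45). The biliary marker list summed to 868 to 5249 FPKM in normal and 871 to 1363 in PH Thy1 libraries, and its part was not tested.

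Whether the response to PH differed among the 10 populations was tested with 9 interaction terms in a single limma fit of all 20 groups. The F test passed for 4 of the 10 genes, against 47.8% of 16527 genes, so the share among these genes was near the background. They were Abcc3 (limma adjusted p = 3.83e-05), Cyp27a1 (6.77e-05), Abcc4 (0.00070) and Cyp8b1 (0.022). Cyp8b1 was listed at 0 in every cBEC, BEC, KC, HSC and blood library, and Cyp27a1 in every cBEC and BEC library. No response could be measured there, so for these genes the F test rests in part on listed values of 0. Abcb11 (0.072), Slc10a1 (0.20), Nr0b2 (0.23), Nr1h4 (0.28), Fgfr4 (0.34) and Cyp7a1 (0.97) did not pass.

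Nr0b2 was uneven in biliary cells. It was listed at 0 in normal cBEC library 1 and at 9.28, 5.91 and 30.02 FPKM in the others, and at 0, 0, 7.58 and 17.5 in normal BEC. The PH libraries lay between 7.74 and 10.8 FPKM. The changes, 0.64 (SE 1.33) and 1.51 (SE 1.22), had limma adjusted p of 0.88 and 0.64. Hepatocyte genes were also seen in other cells. Normal Thy1 library 1 had 8.95 FPKM of Slc10a1, 7.44 of Cyp8b1 and 1.65 of Cyp7a1. Abcb11 was at 18.3 and 2.74 FPKM in normal HSC and at 5.98, 0 and 4.23 in PH HSC. In the PH blood libraries it was at 13.4 and 0. Cyp8b1 was at 1.03 to 2.68 FPKM in PH LSEC and at 1.22 and 1.18 in PH Thy1 libraries. The hepatocyte markers Alb, Apoa1 and Ttr were listed at 0 in each of these groups, which can be a failed estimate.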

How the data were processed

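RNA sequencing of 10 populations sorted by FACS from mouse liver was deposited as 1 table of FPKM per RefSeq transcript with a column for each of 55 libraries; the unit is the one the authors gave in the table's name, and the column headers state none. Per the submitters' processing notes the genome build was mm9 and the tools included CASAVA 1.8.2 and Bowtie 1.0.0; the tool that made the FPKM is not given in the sources used here. FPKM hold no read depth, so no counting interval or count test is given. Only the hepatocyte columns hold values rounded to 2 decimals. For each of 24478 symbols (36141 rows), the row of highest mean across the 55 libraries stood for the gene.

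Groups follow the sample titles. Each population was fitted by itself with limma 3.58.1 (R 4.3.3) on log2(FPKM + 1), with a variance trend and robust moderation, two-sided, with Benjamini-Hochberg adjustment over all genes tested and a threshold of 0.05. Fold changes on this scale understate those of low genes. A gene entered a fit when it reached 1 FPKM in as many libraries as the smaller group has. The share of all genes whose groups did not overlap was counted in hepatocytes only. Named were the 10 genes, the list genes that passed in hepatocytes together with Klb, Nr5a2, Hnf4a, Abcc2, Abcb4 and Slco1b2, and the 3 genes most correlated with Cyp7a1, Nr0b2 and Slc10a1. Klb by population, and the hepatocyte genes named in other cells, were described after their values were seen. The 10 genes, the 5 lists and the marker lists were chosen with earlier results of these data known; 1 gene of the lists is not reported here. The alternatives were upper-quartile scaling, quantile normalization, a pseudocount of 0.1, no filter on low values, a replicate block, a single fit of all groups, the mean over a symbol's rows and leaving out each library; a term for the summed FPKM, values within its sides and the interaction test were added after seeing the data. The fits were tested on simulated data. Figures were drawn with matplotlib 3.10.9 in Python 3.11.15.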

Additional observations from a re-analysis of the deposited data

Results flagged for a closer look

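Among the normal BEC libraries, Abcc3 in library 4 was 87.4 FPKM, far from the other 3 libraries relative to the range of the group. Of 33 groups of 4 or 5 libraries examined, 1 met this rule, and chance alone flags about 1 in 20, or 1.65 of 33. The response to PH differed among the 10 populations by the F test of 9 interaction terms in limma for Cyp8b1 (adjusted p = 0.0217), Cyp27a1 (adjusted p = 6.77e-05), Abcc3 (adjusted p = 3.83e-05) and Abcc4 (adjusted p = 0.00070), in a fit where 47.8% of all genes passed.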

How the results depend on the processing

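In hepatocytes, Cyp27a1 was called lower in every alternative run, and Nr0b2 in all but the single fit of all groups. The count of the 10 genes called lower was 3, from 2 to 5 when 1 library was left out, and 5 with the term for the summed FPKM; none was called higher by limma in any of them. The number of all genes called, 621, was 302 with the replicate block, 1364 in the single fit, 2191 with the term and 312 to 691 when 1 library was left out. The list genes called lower, 11, were 6 with no filter and with the replicate block, 19 with the term and 5 to 11 when 1 library was left out. The list genes called higher, 1, were 0 with no filter, with upper-quartile scaling and with the replicate block, 3 with the term and 0 to 1 when 1 library was left out. Outside hepatocytes 7 pairs of gene and population were called, 4 with no filter. With no filter, 17255 genes were tested in hepatocytes in place of 10029; the cause of the other shifts was not tested. Fgfr4 in hepatocytes ranged from -0.35 to 0.23 and Nr5a2 from -0.40 to 0.11 when 1 library was left out, positive without PH library 1 for Fgfr4 and without normal library 2 or 3 or PH library 3 for Nr5a2. Over all values of single genes across the alternatives, 475 kept their side and direction, 96 lost the call, 5 gained it and 4, those just named, reversed. Same-numbered hepatocyte libraries correlated in their deviations from the group means at -0.32, 0.57, -0.67 and 0.44. Numbers 1 and 3, on opposite sides of the summed FPKM in normal and PH, gave the negative values. Numbers 2 and 4, on the same side in both, gave the positive ones. The values thus repeat the split and cannot show whether the numbers pair the samples. Under the replicate block Cyp8b1 (limma adjusted p = 0.095) and both LSEC calls were lost. Nr0b2 in BEC and Abcc4 in KC were called under it, among 1027 and 6549 genes called there. Abcc4 in blood cells was called with quantile normalization, with upper-quartile scaling and without PH library 2, and Nr1h4 in NPD without normal library 1. FPKM give no depth, so its limit on low genes such as Cyp7a1 could not be set.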
